A study of Homo sapiens with 13 samples.

Results

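The AP-1 family genes FOS, FOSB, FOSL1, FOSL2, JUN, JUNB, JUND and ATF3 were examined for DNA-RNA hybrid peaks. The 8 genes were chosen by name as members of the family, out of 19974 protein-coding genes on chromosomes 1 to 22 and X. A peak was assigned to a gene when it overlapped the annotated RefSeq span or the 2 kb on either side. The peaks come from DRIP-seq, in which sheared genomic DNA of about 500 bp is precipitated with S9.6, an antibody that binds DNA-RNA hybrids. All samples are from U2OS, an established epithelial line from a human bone osteosarcoma. Cells received a control siRNA (siCtrl, genotype labelled WT), an siRNA against REXO4 (labelled REXO4 knockdown) or an siRNA against RNaseH1 (labelled RNaseH1 knockdown), and the study asked whether both proteins act on R-loops in the same regions. Each transfection has 3 S9.6 libraries and 1 input, and the siCtrl cells also have 1 IgG library, which makes 13 samples. Not given in the sources used here are the siRNA sequences and the time after transfection.

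AP-1 is a family of basic leucine zipper transcription factors that bind DNA as dimers of FOS, JUN and ATF proteins. Several of its genes are immediate early genes, which are transcribed within minutes of growth factor or stress signalling, and AP-1 is well known for its part in bone cells and osteosarcoma. An R-loop is a hybrid of RNA with one DNA strand, with the other strand left unpaired; it often forms behind RNA polymerase at GC-rich gene starts, and RNaseH1 removes it by cutting the RNA. REXO4 belongs to a family of exonucleases.

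The authors called 1 peak list per transfection on the merged S9.6 libraries, so no value below has a replicate error and no test between transfections was made. The lists held 4458 siCtrl, 12687 siREXO4 and 20954 siRNaseH1 peaks, with median widths of 336, 383 and 394 bp. Read depth is not given. The expected genome-wide coverage of the merged libraries, recovered from the peak values, was similar across the lists: 1.28 fragments for siCtrl, 1.41 for siREXO4 and 1.36 for siRNaseH1. Fold below always means the authors' enrichment over local background at a peak's summit, and it is read only within its list. DRIP-seq on bulk cells cannot tell more hybrids per cell from more cells that carry one. Coordinates are those of hg38.

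All 8 AP-1 family genes held a peak in each of the 3 lists. Over all protein-coding genes, 12.0% held a siCtrl peak, 33.7% a siREXO4 peak, 39.2% a siRNaseH1 peak and 8.59% a peak in all 3. Among protein-coding genes under 10 kb, the length of 6 of the 8 spans, these shares were 5.89%, 22.8% and 24.6% for the single lists. The family held 14 siCtrl, 25 siREXO4 and 18 siRNaseH1 peaks, and these peaks summed to 12806, 32173 and 41350 bp. The siRNaseH1 peaks were thus fewer than the siREXO4 peaks and longer in sum. Family peaks had median widths of 745 bp for siCtrl, 977 bp for siREXO4 and 1631.5 bp for siRNaseH1. Peaks of 2000 bp or more numbered 1, 6 and 7 in the family, against 0.583%, 0.82% and 0.692% of all peaks in the siCtrl, siREXO4 and siRNaseH1 lists. The summed width in siREXO4 was 2.51 times that in siCtrl at these genes and 3.52 times over the whole lists. The same ratio for siRNaseH1 was 3.23 at these genes and 5.72 over the whole lists, so the family's share of all peak length was largest in siCtrl.

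**Figure D1:**
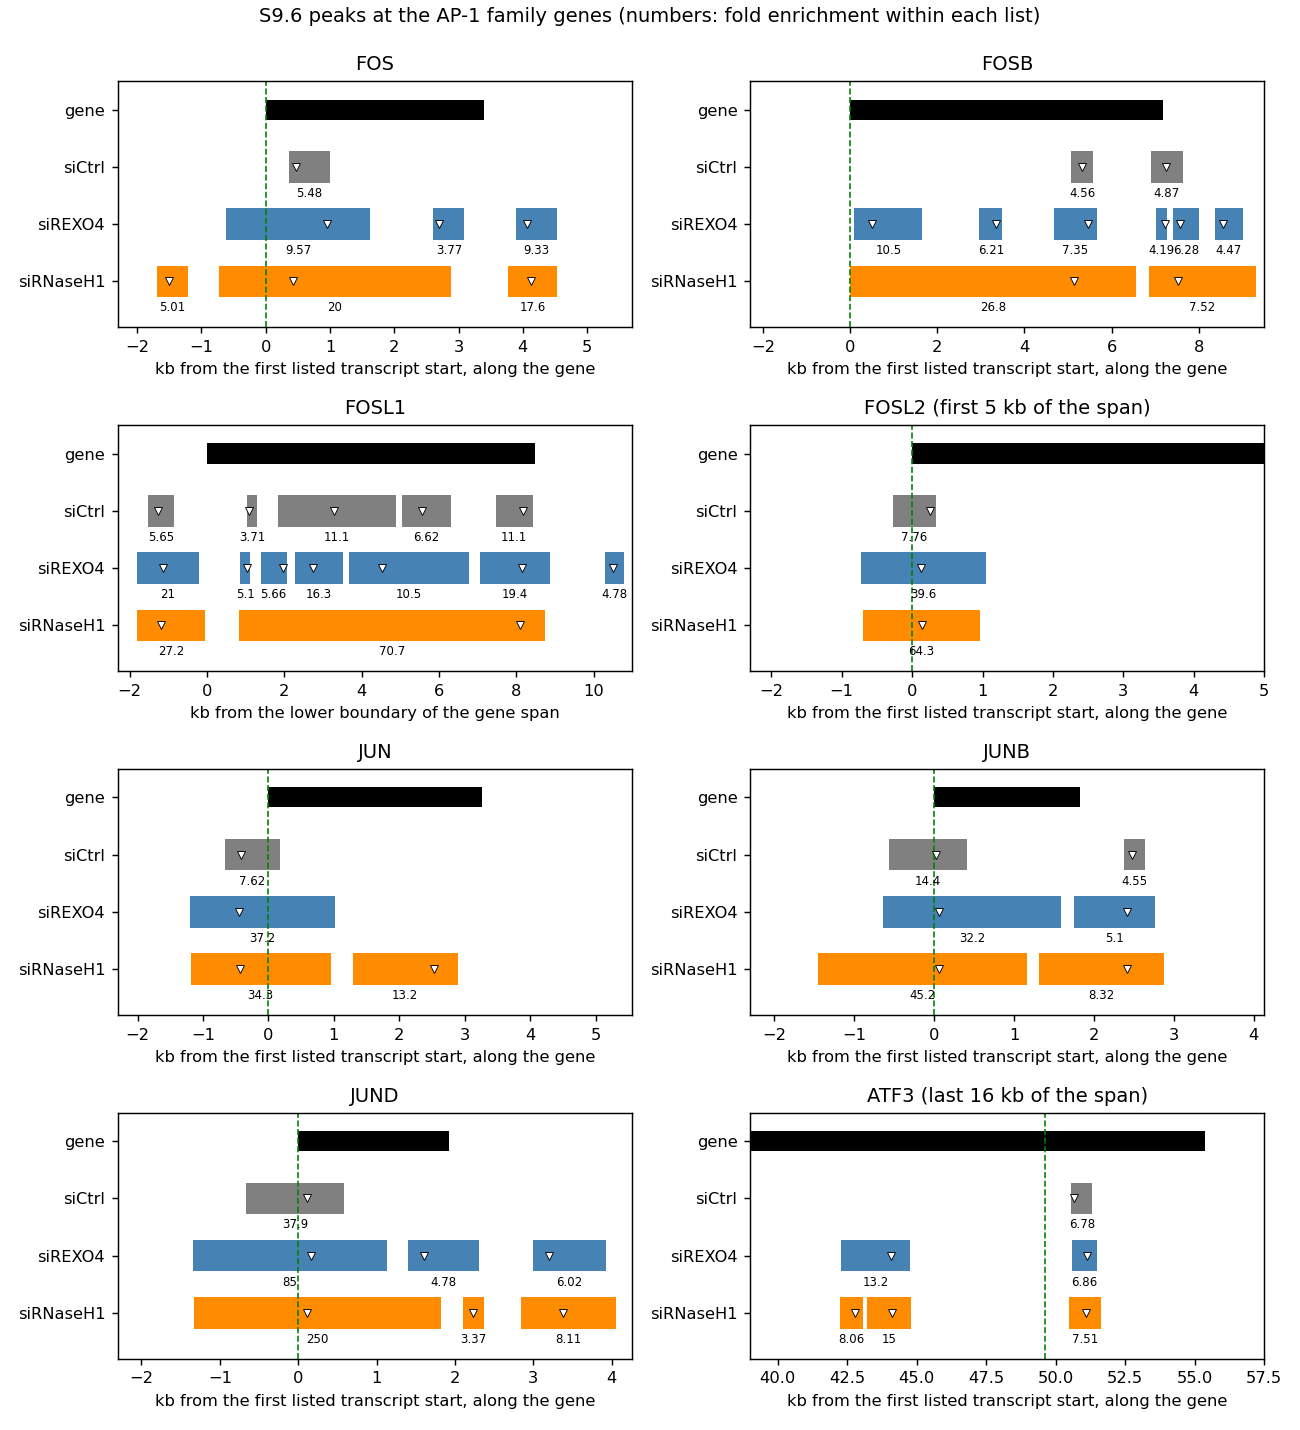
Peaks of the 3 merged lists at the 8 AP-1 family genes, with the distance along each gene in kb on the x axis and 1 row per list. Coloured bars are peaks, white triangles their summits, printed numbers their fold enrichment, black bars the annotated span and dashed lines the listed transcript starts. FOSL1 is drawn from its lower coordinate, and FOSL2 and ATF3 are drawn in part. Each siCtrl peak has a peak of both knockdown lists over it.

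The DNA just before the start is shown for 5 of the 6 genes whose promoter window, from 250 bases before to 50 after a start, a peak overlapped in at least 1 list. They span the range from a window overlapped in all lists (JUND, JUN and FOSL2) to one overlapped in the knockdowns (FOS) or in siRNaseH1 alone (FOSB). At FOSB the siRNaseH1 peak begins at 45468000, just after the start at 45467996. None of the bases shown for FOSB thus lies under a peak. Each is the 250 bases before a listed start, 5′ to 3′ on the gene's strand, from the RefSeq promoter table of GRCh38.p14. The windows are chr14:75278578-75278827 on the plus strand for FOS, chr19:45467746-45467995 plus for FOSB, chr2:28392608-28392857 plus for FOSL2, chr1:58784048-58784297 minus for JUN and chr19:18281623-18281872 minus for JUND. Capitals mark TATAAA in FOS and FOSB, TGACATCA in JUN and TGACGTCA in JUND.
FOS: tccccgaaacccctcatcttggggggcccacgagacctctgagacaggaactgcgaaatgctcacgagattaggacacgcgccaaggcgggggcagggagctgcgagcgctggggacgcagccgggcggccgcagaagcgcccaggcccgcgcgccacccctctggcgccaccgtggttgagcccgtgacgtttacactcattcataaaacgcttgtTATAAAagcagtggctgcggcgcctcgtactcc
FOSB: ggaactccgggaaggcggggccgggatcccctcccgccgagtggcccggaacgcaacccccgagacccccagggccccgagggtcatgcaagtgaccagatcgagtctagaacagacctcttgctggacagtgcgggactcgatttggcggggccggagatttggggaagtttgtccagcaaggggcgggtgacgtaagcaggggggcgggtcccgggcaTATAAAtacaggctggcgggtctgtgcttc
FOSL2: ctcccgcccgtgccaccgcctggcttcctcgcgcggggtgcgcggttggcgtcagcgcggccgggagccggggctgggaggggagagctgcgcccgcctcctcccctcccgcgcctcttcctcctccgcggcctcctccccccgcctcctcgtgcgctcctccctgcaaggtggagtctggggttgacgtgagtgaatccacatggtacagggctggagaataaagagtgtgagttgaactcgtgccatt
JUN: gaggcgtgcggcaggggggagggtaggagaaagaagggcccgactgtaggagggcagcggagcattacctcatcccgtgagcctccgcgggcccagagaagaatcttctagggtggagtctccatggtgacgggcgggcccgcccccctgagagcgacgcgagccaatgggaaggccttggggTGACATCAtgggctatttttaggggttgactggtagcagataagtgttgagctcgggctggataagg
JUND: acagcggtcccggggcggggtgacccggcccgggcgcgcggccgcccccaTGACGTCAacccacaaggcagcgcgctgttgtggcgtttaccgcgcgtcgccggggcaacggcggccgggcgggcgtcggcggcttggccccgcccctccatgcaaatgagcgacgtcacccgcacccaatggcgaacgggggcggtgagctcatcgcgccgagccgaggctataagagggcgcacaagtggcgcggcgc

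The sequences differ in base composition. JUND had the window richest in G and C at 77.0%, with a ratio of observed to expected CpG of 1.11, counted over the 250 bases before to 50 after the start. FOS followed by CpG ratio, at 0.957 with 64.7% G and C, and JUN had 62.0% with a CpG ratio of 0.619. Across all 34961 windows of the table the medians were 58.7% and 0.58. The ATF3 windows, at its 2 listed starts, stood at 48.0% and 46.3% G and C with CpG ratios of 0.239 and 0.0633. The promoter table matched 7 of the 8 genes, with 8 windows, and FOSL1 was not matched.

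Peaks overlapped the promoter windows of 4 of the 7 matched genes in siCtrl (FOSL2, JUN, JUNB and JUND). In siREXO4 they overlapped 5, with FOS added, and in siRNaseH1 6, with FOSB added. Neither ATF3 window was overlapped in any list, and unlisted starts were not examined. Of all windows, 1.23%, 11.4% and 11.8% were overlapped in siCtrl, siREXO4 and siRNaseH1. All windows so overlapped had median G and C of 68.7%, 68.3% and 68.7%, above the 64.3% of the family's own windows.

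Motifs were searched as exact letters on both strands of the 250 bases before each start, and no match overlapped another. The CRE-type octamer TGACGTCA was found at JUND, from base -200 to -193 before the start, and in 1.65% of all windows. The variant TGACATCA was found at JUN from -67 to -60 and in the first ATF3 window from -123 to -116, against 2.37% of all windows. TATAAA was found from -33 to -28 at FOS, -30 to -25 at FOSB, -31 to -26 at JUNB and -230 to -225 in the second ATF3 window, against 10.7% of all windows. The AP-1 heptamer TGANTCA, held by 6.54% of all windows, and the CArG box of serum response factor, held by 1.16%, were in none of the 8 family windows. These are letter matches in a short window, not binding sites. A CArG box farther than 250 bases before a start, at FOS or elsewhere, would not be found.

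FOS, the founding immediate early gene of the family, spans chr14:75278828-75282230 on the plus strand. In siCtrl it held 1 peak of 646 bp inside the gene, at 75279189-75279834, with fold 5.48 and its summit 468 bp after the start. The siREXO4 peak over it measured 2239 bp, from 75278216 to 75280454, with fold 9.57. The siRNaseH1 peak over it measured 3609 bp, from 75278100 to 75281708, with fold 20.0, and was the 14th widest of its list. Both knockdown peaks thus began before the FOS start, where the siCtrl peak did not reach, and the siRNaseH1 peak ran through most of the gene. Peaks covered 19.0% of the FOS span in siCtrl, 62.0% in siREXO4 and 84.7% in siRNaseH1. Inside the gene siREXO4 also held a weaker peak of 484 bp at 75281438-75281921, with fold 3.77, which met no siCtrl peak. A further peak lay past the gene's end in both knockdowns and not in siCtrl. It began 493 bp after the gene in siREXO4, with 645 bp and fold 9.33, and 364 bp after it in siRNaseH1, with 774 bp and fold 17.6. The list for siRNaseH1 alone held a peak 1204 bp before the gene, with 490 bp and fold 5.01.

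FOSB, a close relative of FOS, spans chr19:45467996-45475179 on the plus strand. Its siCtrl peaks lay in the 3′ part of the gene and across its end, with summits 5323 and 7257 bp after the start. The second summit lay just past the gene's end. The widths were 502 and 730 bp and the folds 4.56 and 4.87. In siREXO4 it held 6 peaks, and the highest lay at the other end of the gene, with its summit 504 bp after the start, a width of 1564 bp and fold 10.5. That siREXO4 peak, another inside the gene with fold 6.21 and one past its end with fold 4.47 met no siCtrl peak. In siRNaseH1 a single peak of 6547 bp, from 45468000 to 45474546, with fold 26.8, ran over 3 of these siREXO4 peaks and over a siCtrl peak. It was the 2nd widest of all 20954 siRNaseH1 peaks, and its summit, 5128 bp after the start, lay near the first siCtrl summit and not near the highest siREXO4 one. A second siRNaseH1 peak of 2437 bp, with fold 7.52, crossed the gene's end. Coverage of the FOSB span was 10.9%, 45.1% and 95.5% in siCtrl, siREXO4 and siRNaseH1.

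FOSL1, which encodes the FOS-related protein FRA-1, spans chr11:65892049-65900545. It was the most covered family gene in siCtrl, with 65.3% of its span under peaks, and it held 5 siCtrl peaks, the widest of 3051 bp with fold 11.1. In siREXO4 it held 7 peaks and 79.4% was covered. In siRNaseH1 it held 2 peaks and 90.2% was covered, nearly all by 1 peak of 7922 bp from 65892880 to 65900801. That was the widest peak of the siRNaseH1 list, with fold 70.7, and it ran over 5 siREXO4 peaks. The deepest summit inside FOSL1 lay close to the upper boundary of the gene in each list, 313, 354 and 391 bp below it in siCtrl, siREXO4 and siRNaseH1. The folds there were 11.1, 19.4 and 70.7. One FOSL1 peak in each list lies outside the span, over the neighbouring gene CCDC85B (65890673-65891635), with folds of 5.65, 21.0 and 27.2. It is counted here only because it falls in the 2 kb flank. In siREXO4 a further flank peak, of 512 bp with fold 4.78, lay 1789 bp past the upper boundary. It met no siCtrl or siRNaseH1 peak and was the only gained peak at FOSL1.

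FOSL2, which encodes FRA-2, spans chr2:28392858-28417317 on the plus strand and held 1 peak per list, at its start. The siCtrl peak had 602 bp and fold 7.76, the siREXO4 peak 1785 bp and fold 39.6, and the siRNaseH1 peak 1666 bp and fold 64.3. The summits lay 256, 133 and 141 bp after the start. FOSL2 thus differed from FOS, FOSB and FOSL1 in that no peak lay farther into the gene or past its end, and coverage of its longer span stayed at 1.37%, 4.31% and 3.96%. The lncRNA gene FOSL2-AS1 (28384409-28394672) overlaps these peaks, and DRIP-seq peaks carry no strand, so the 2 genes cannot be told apart there.

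JUN, the main dimer partner of FOS, spans chr1:58780791-58784047 on the minus strand. Its leading peak was centred before the start in every list, with summits 423, 445 and 430 bp upstream in siCtrl, siREXO4 and siRNaseH1. This peak had 854 bp and fold 7.62 in siCtrl, 2226 bp and fold 37.2 in siREXO4, and 2138 bp and fold 34.3 in siRNaseH1. The knockdown peaks had nearly the same edges, 58783026-58785251 and 58783099-58785236, and both reached into the divergent lncRNA gene JUN-DT (58785151-58899712), which the siCtrl peak did not. In siRNaseH1, JUN held one more peak, over the 3′ part of the gene at 58781159-58782755, with 1597 bp and fold 13.2. No siCtrl or siREXO4 peak overlapped it. With this peak 78.2% of JUN was covered in siRNaseH1, beside 31.4% in siREXO4 and 5.65% in siCtrl.

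JUNB, a JUN relative that is often the weaker activator, spans chr19:12791486-12793315 on the plus strand. Its leading peak was centred at the start in all lists, with summits 22, 67 and 65 bp after it. The widths were 987, 2226 and 2610 bp and the folds 14.4, 32.2 and 45.2 in siCtrl, siREXO4 and siRNaseH1. A second peak lay at or past the gene's end in each list, with its summit in the 3′ flank and folds of 4.55, 5.1 and 8.32. It had 266, 1013 and 1566 bp. The siCtrl peak began 550 bp after the gene, while both knockdown peaks reached into the gene. The edges of the JUNB peaks differed between the lists, but no list held a JUNB peak away from these 2 places. Coverage of the span was 22.8%, 91.2% and 91.6%. The protein-coding gene HOOK2 (12763003-12792350) overlaps JUNB at its start, and the leading peak lies over both.

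JUND, the JUN member that is widely expressed in resting cells, spans chr19:18279694-18281622 on the minus strand. It had the highest fold of the family in each list. The peak at its start had 1253 bp and fold 37.9 in siCtrl, 2480 bp and fold 85.0 in siREXO4, and 3154 bp and fold 250.0 in siRNaseH1. These folds ranked 11 of 4458, 10 of 12687 and 2 of 20954 peaks, so JUND was near the top of every list. Its summits lay 108, 162 and 108 bp after the start. In both knockdowns, peaks without a siCtrl counterpart lay at and past the 3′ end, with folds of 4.78 and 6.02 in siREXO4 and of 3.37 and 8.11 in siRNaseH1. Coverage of the JUND span was 30.4%, 86.2% and 94.6%. The upstream part of the start peak lies over the microRNA gene MIR3188 (18282077-18282161) and over only part of the lncRNA gene LOC124904652 (18282092-18285933).

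ATF3, a stress-induced gene whose protein pairs with JUN proteins or represses as a homodimer, spans chr1:212565407-212620777 on the plus strand. Its listed starts are at 212565407 and 212615018, and no ATF3 peak in any list lay at the first. In siCtrl it held 1 peak of 760 bp and fold 6.78, with its summit 1036 bp after the second start. The siREXO4 and siRNaseH1 peaks over it had 882 bp with fold 6.86 and 1149 bp with fold 7.51. The higher knockdown signal lay elsewhere, several kb before the second start and inside the annotated gene, where siCtrl had no peak. Only the listed starts were used, and whether an unlisted ATF3 start lies there was not examined. There siREXO4 held 1 peak of 2482 bp at 212607685-212610166 with fold 13.2. In nearly the same stretch siRNaseH1 held peaks of 842 bp with fold 8.06 and of 1590 bp with fold 15.0, and the higher summit stood at -5491 bp from the second start, beside -5546 bp in siREXO4. Coverage of the long ATF3 span was 1.37%, 6.08% and 6.47%.

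**Figure D2:**
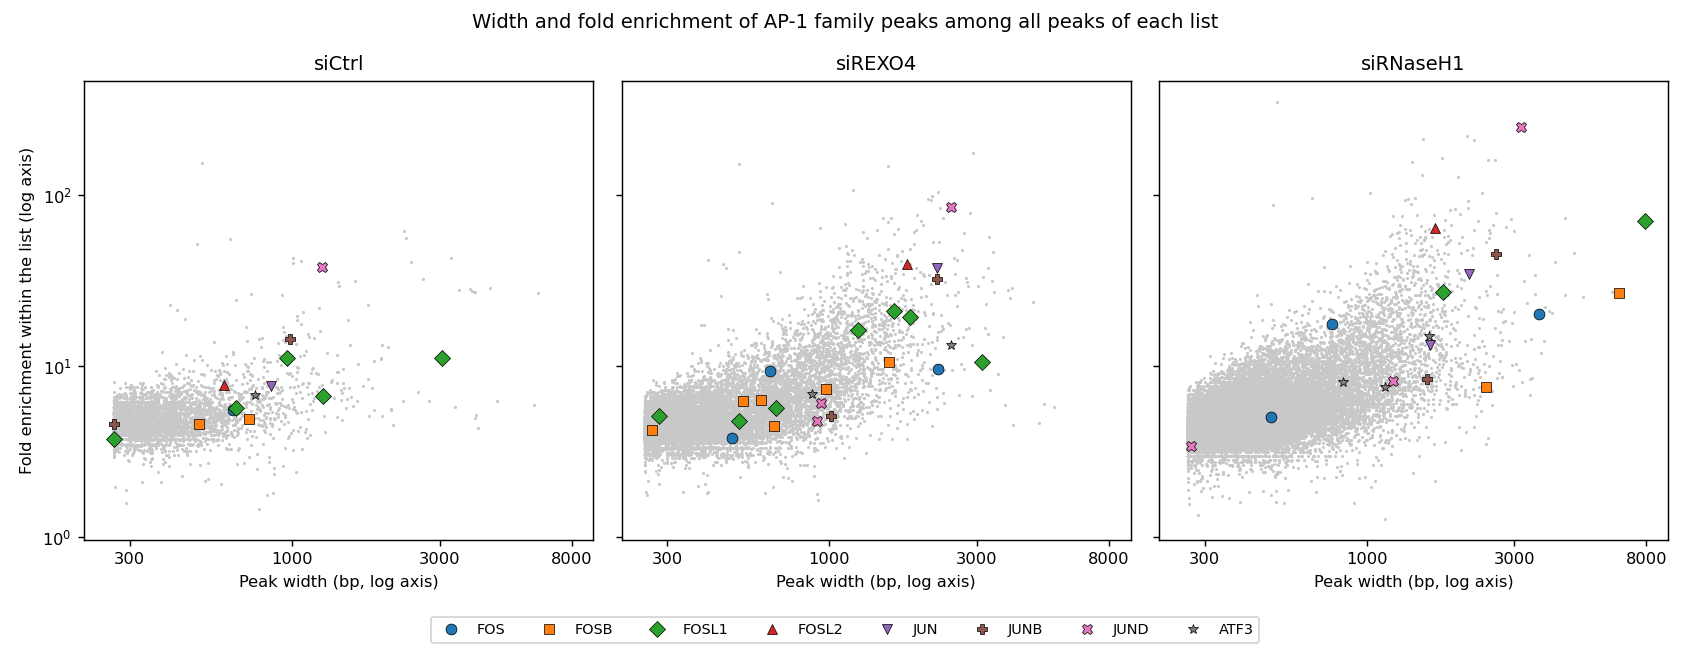
Width in bp (x, log axis) against fold enrichment (y, log axis) for all peaks of each list (grey) and for the peaks of the 8 AP-1 family genes (coloured by gene), 1 panel per list. The FOSL1 peak of 7922 bp and the FOSB peak of 6547 bp lie at the right edge of the siRNaseH1 panel, and the JUND peak of fold 250.0 lies near its top.

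Peaks called gained, meaning knockdown peaks that no siCtrl peak overlapped by at least 1 bp, were at 5 family genes in siREXO4 (FOS, FOSB, FOSL1, JUND and ATF3). In siRNaseH1 they were at 4 (FOS, JUN, JUND and ATF3). Over all protein-coding genes the shares were 31.3% and 37.6%. Peaks gained in both knockdowns at overlapping places were at FOS, JUND and ATF3, 3 of the 8, beside 20.8% of all protein-coding genes. FOSL2 and JUNB held none in either list. Without the 2 kb flank the siRNaseH1 count was 2, JUN and ATF3, since the FOS and JUND peaks lie past the gene's boundaries. The siREXO4 count was then 4, without FOSL1, and the count gained in both was 2, JUND and ATF3. FOSB counted as without a gained peak in siRNaseH1 although its 6547 bp peak covered DNA that siCtrl peaks did not, because the same peak also covered a siCtrl peak. The count of gained genes therefore understates new coverage where peaks are long.

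The siCtrl peaks of the family all had counterparts. Each of the 14 was overlapped by a siREXO4 peak and by a siRNaseH1 peak, and 0 of the 14 by neither. Among siCtrl peaks at all protein-coding genes, 44.3% were overlapped in siREXO4, 53.8% in siRNaseH1 and 40.6% in neither. The family's siCtrl peaks were wider than the whole list (median 745 against 336 bp) and higher (median fold 6.7 against 4.83). They were not matched to other peaks by width or fold. The siREXO4 peaks reached past both edges of 11 of the 14 and the siRNaseH1 peaks past both edges of 14, beside 47.6% and 56.1% of all overlapped siCtrl peaks. The median ratio of knockdown to siCtrl width was 2.12 in siREXO4 and 3.05 in siRNaseH1, and over all overlapped siCtrl peaks 1.38 and 1.6. Summits lay within 100 bp of the siCtrl summit for 7 of the 14 in each knockdown, beside 55.0% and 55.9% of all overlapped siCtrl peaks. Distances were also taken from each siCtrl summit to the nearest knockdown summit at the same gene. Their median was 97.5 bp in siREXO4 (22 to 1057 bp) and 97 bp in siRNaseH1 (0 to 4468 bp). That nearest summit need not lie in an overlapping peak: the 4468 bp, at FOSL1, run to the peak over CCDC85B. Over all overlapped siCtrl peaks, where only overlapping peaks were used, the medians were 87 and 85 bp.

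At FOS, FOSB and FOSL1, siRNaseH1 peaks joined what the siREXO4 list held as separate peaks. Of the 18 siRNaseH1 peaks, 6 overlapped at least 2 siREXO4 peaks: 1 at FOS, 2 at FOSB, and 1 each at FOSL1, JUNB and JUND. In the whole siRNaseH1 list 0.997% of peaks did so. No peak of the list overlapped more than the 5 under the FOSL1 peak. The reverse, a siREXO4 peak over at least 2 siRNaseH1 peaks, was found for 3 of 25 family peaks, at JUNB, JUND and ATF3, and for 1.43% of the siREXO4 list. JUNB and JUND thus count in both directions, since the gaps between peaks lie at different places in the 2 lists.

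At least 50% of the annotated span lay under peaks for 1 family gene in siCtrl (FOSL1), for 4 in siREXO4 (FOS, FOSL1, JUNB and JUND) and for 6 in siRNaseH1 (all but FOSL2 and ATF3). The shares over all protein-coding genes were 0.03%, 0.255% and 0.461%. Family genes are short, and 6 of the 8 spans are under 10 kb. Among the 5658 protein-coding genes under 10 kb, the shares at or above 50% were 0.106%, 0.884% and 1.52%. The FOSL2 and ATF3 spans, the only ones above 10 kb, were the least covered in the knockdown lists.

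**Figure D3:**
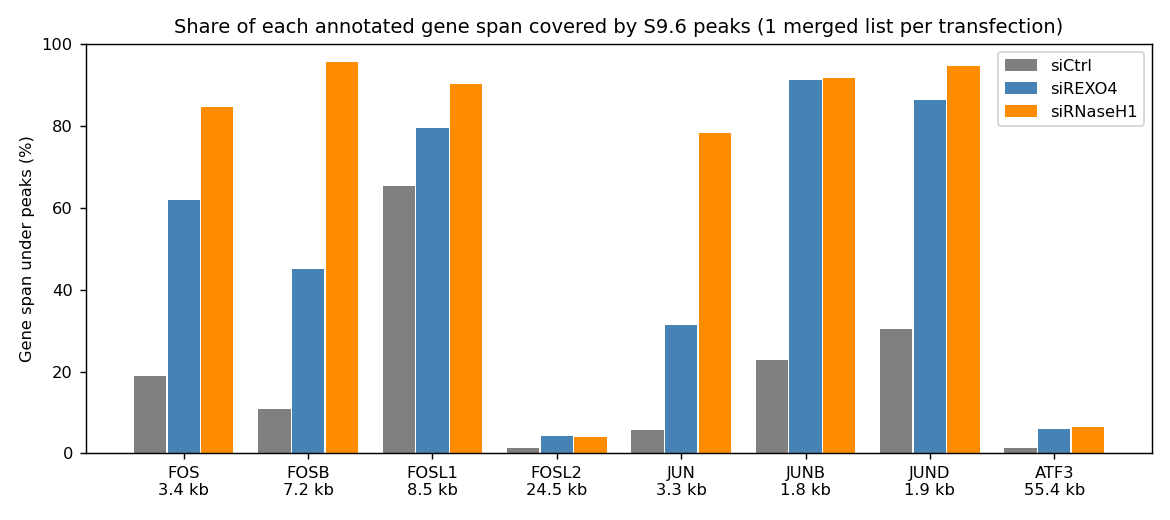
Share of each annotated span under peaks (y axis, percent, from 0) for the 8 AP-1 family genes, with 1 bar per merged list and the span length under each name. FOS, FOSB, FOSL1, JUN, JUNB and JUND lie between 78.2% and 95.5% in siRNaseH1, and FOSL2 and ATF3 lie below 7% in every list.

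The number of fragments at a summit was recovered from the authors' fold and p-value and gives the depth behind these peaks. At the deepest JUND summit it was 121 in siCtrl (exact 95% Poisson interval 100 to 145), 383 in siREXO4 (346 to 423) and 924 in siRNaseH1 (865 to 986). JUND stood above the other 7 genes in each list, with no overlap of intervals. At FOS it was 15 (8.4 to 24.7), 31 (21.1 to 44.0) and 91 (73.3 to 112), so FOS was among the shallowest. At FOSB it was 15 (8.4 to 24.7), 34 (23.5 to 47.5) and 87 (69.7 to 107). At JUN it was 32 (21.9 to 45.2), 169 (144 to 196) and 172 (147 to 200), nearly the same in both knockdowns. At JUNB it was 49, 115 and 288, at FOSL1 41, 132 and 260, at FOSL2 24, 121 and 173, and at ATF3 17, 51 and 75. The intervals cover counting error only and not the spread between cultures, and PCR copies of a fragment are not independent.

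Divided by the genome-wide coverage of its list, the siREXO4 interval lay above the siCtrl interval at 6 of the 8 genes, and overlapped it at FOS and FOSB. The deepest summits of a gene can lie at different places. At ATF3 the deepest siREXO4 summit is at the peak without a siCtrl counterpart, and at the ATF3 peak found in both lists the fragments were 17 (9.9 to 27.2) in siCtrl and 18 (10.7 to 28.4) in siREXO4. At FOSB the deepest siREXO4 summit also lies away from the siCtrl peaks. Among protein-coding genes with a peak in both lists, 31.2% had the siREXO4 interval above. The siRNaseH1 interval lay above the siCtrl interval at all 8 genes, beside 43.7% of protein-coding genes. It lay above the siREXO4 interval at 6 of the 8 and overlapped it at JUN and ATF3, beside 12.1% of protein-coding genes. Both comparisons with siCtrl share the same siCtrl list. For the same ratio, intervals separate more readily at deeper summits, and the family was not matched to other genes by depth.

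**Figure D4:**
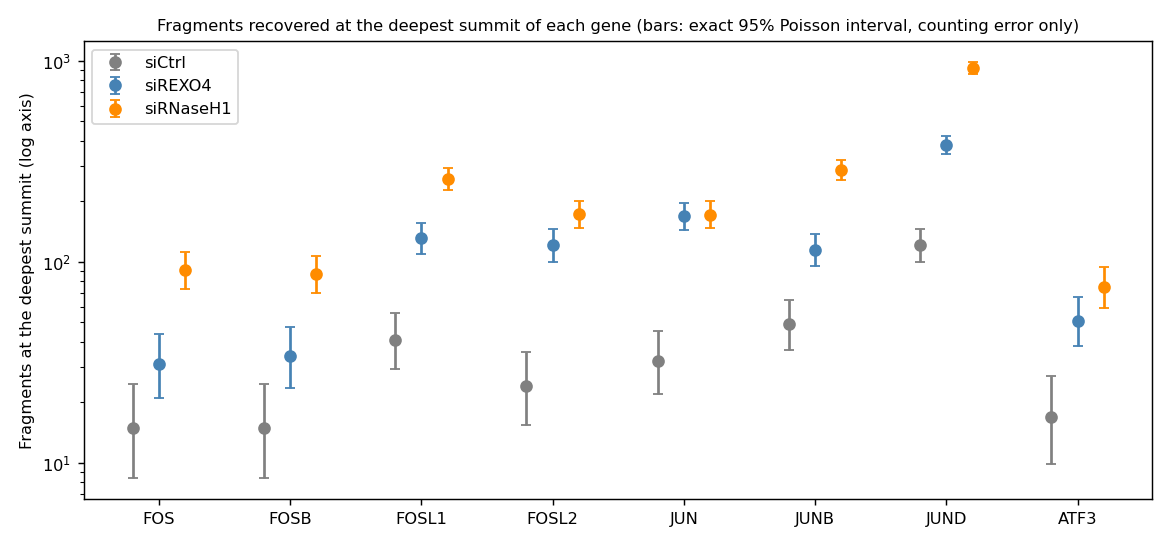
Fragments at the deepest summit of each AP-1 family gene (y, log axis) in the 3 merged lists, not scaled for coverage. Points are recovered whole numbers and bars the exact 95% Poisson interval for counting error. JUND reaches 121, 383 and 924, and the JUN points of the knockdowns lie together at 169 and 172.

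By fold, the order of the genes was not the same in the 3 lists. In siCtrl it ran JUND 37.9, JUNB 14.4, FOSL1 11.1, FOSL2 7.76, JUN 7.62, ATF3 6.78, FOS 5.48 and FOSB 4.87. In siREXO4 JUND at 85.0 was followed by FOSL2 at 39.6, JUN at 37.2 and JUNB at 32.2, and FOS came last at 9.57. In siRNaseH1 JUND at 250.0 was followed by FOSL1 at 70.7 and FOSL2 at 64.3, and ATF3 came last at 15.0. JUND therefore led each list, while the places below it changed. With 1 merged list per transfection, no spread over samples exists by which to tell neighbours in these orders apart.

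Genes whose highest folds in the 3 lists were most like those of FOS, JUN and ATF3 were sought among the 1715 protein-coding genes with a peak in all 3. The measure was the Euclidean distance between log2 folds. Closest to FOS were MFSD12 (distance 0.129), EIF2A (0.133) and DENND1A (0.151). Close to JUN were USP36 (0.148) and DNAJB1 (0.177). Closest to ATF3 were UBE2K (0.143), RPS13 (0.148) and PPP1R3F (0.178). USP36, for instance, had folds of 7.9, 40.0 and 32.2 beside 7.62, 37.2 and 34.3 at JUN.

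Other genes of the AP-1 pathway were taken as 3 lists. Of 22 other basic leucine zipper genes that can pair with or resemble the family, 9 held a siCtrl peak, 12 a siREXO4 peak, 16 a siRNaseH1 peak, 7 a peak in all 3 and 5 none. The shares over all protein-coding genes, as above, were 12.0%, 33.7%, 39.2% and 8.59%. CREM, a CREB-related factor, had folds of 14.9, 76.3 and 128, and CREB1, the cyclic AMP response factor, 10.1, 51.9 and 83.2. MAFF, a small MAF protein, had 6.93, 37.1 and 62.1, and ATF5 had 5.28, 12.0 and 20.0. CREM and CREB1 thus had folds between those of FOSL2 and JUND in each list.

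Of 20 genes of kinases, phosphatases and factors that act on AP-1 from upstream, 1 held a siCtrl peak, 14 a siREXO4 peak and 18 a siRNaseH1 peak, and 11 held a peak gained in both knockdowns. Beside these counts stand 12.0%, 33.7%, 39.2% and 20.8% of all protein-coding genes. The one with a siCtrl peak was DUSP1, a phosphatase of MAP kinases, with folds of 11.4, 44.5 and 65.6. SRF, the factor that binds the CArG box of FOS, had 10.1 in siREXO4 and 34.1 in siRNaseH1, MAPKAPK2, a kinase below p38, 20.4 and 31.8, and ELK4, an SRF partner, 15.8 and 19.5. The siCtrl count was thus 1 of 20 here and 8 of 8 in the AP-1 family, and this difference was not tested.

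Of 18 known AP-1 targets, 2 held a siCtrl peak, 4 a siREXO4 peak, 7 a siRNaseH1 peak and 11 none. These counts are near or below the 12.0%, 33.7% and 39.2% of all protein-coding genes. EZR, a linker of membrane and actin, had folds of 15.8, 32.2 and 47.6, and CCND1, the cyclin D1 gene, 3.92, 14.7 and 18.9. CD44, a hyaluronan receptor, had 4.31 in siREXO4 and 6.5 in siRNaseH1. Peaks do not measure transcript levels, and how far these counts follow expression was not tested.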

How the data were processed

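Per the labels, S9.6 immunoprecipitates, inputs and 1 IgG library were sequenced from U2OS cells. The submitters' processing notes list MACS2 2.1.0.20150731, HISAT2 2.2.1, Trim Galore 0.6.10, SAMtools 1.17, Cufflinks, deepTools 3.5.1 and the hg38 build, with no roles. Which control library the calls used, and how duplicates were handled, is not given in the sources used here. All 3 deposited lists are narrowPeak tables called on merged libraries, so values are pooled, with no SD or n. Their columns hold the authors' fold enrichment (a ratio), −log10 p-value, −log10 q-value and score. Inputs, IgG and single libraries were not analysed here.

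Autosomal and X-chromosome peaks were assigned to RefSeq GRCh38.p14 gene spans plus 2 kb, with an overlap of at least 1 bp. In MACS2 a fold is (fragments + 1) / (background + 1) and p is an upper Poisson tail. On that basis whole fragments were recovered for 99.8% of siCtrl, 99.9% of siREXO4 and 99.9% of siRNaseH1 peaks, within 0.001 in −log10 p. Genome-wide coverage was read as the lowest background in a list. The members and lists were chosen with earlier results of these data known. All 8 members are named, and their main peaks are described. Up to 4 genes per pathway list are named, first those with a peak in all 3 lists and then by siRNaseH1 fold, and 3 genes most like FOS, JUN and ATF3 each. Of the genes so chosen, 2 are not reported here. The alternatives were no flank or 5 kb, stricter q or fold, equal list length, a larger overlap and other background genes. Work was done in Python 3.11.15 with pandas 2.3.3, NumPy 2.4.6, Matplotlib 3.10.9 and SciPy 1.17.1, and the code was tested on simulated data.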

Additional observations from a re-analysis of the deposited data

How the results depend on the processing

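Of 72 alternative values of the family's counts, 69 lay within 1.5 times the reported count. The exceptions concern gained peaks. With peaks limited to −log10 q of at least 5, or to fold of at least 5, the family genes with a peak gained in both knockdowns numbered 5 and 5 in place of 3, because weak siCtrl peaks then no longer count. With no flank, 2 genes held a siRNaseH1 gained peak in place of 4. At either stricter limit 7 of the 8 genes held a siCtrl peak. The highest folds were recomputed only with no flank and with a flank of 5 kb; of these 48 values 47 were as reported, and the exception was FOSL1 in siREXO4, at 19.4 without the flank in place of 21.0. The share of genes holding a siCtrl, siREXO4 or siRNaseH1 peak, 12.0%, 33.7% and 39.2% over protein-coding genes, was 5.92%, 16.4% and 19.0% over all annotated genes and 5.89%, 22.8% and 24.6% over protein-coding genes under 10 kb. With lists of equal length, or an overlap of at least 50%, siREXO4 peaks overlapped 13 of the 14 siCtrl peaks. No paired analysis was possible because each deposited list merges the replicates of a transfection. For the same reason no replicate could be left out. Exons, introns and peak sequence were not read, since no genome was used.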
